A study of Mus musculus with 2 samples.

Results

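The let-7, miR-99 and miR-125 families were followed here through 6 mature microRNAs (miRNAs, short RNAs that guide repression of messenger RNAs): let-7g-5p, let-7i-5p, miR-99a-5p, miR-99b-5p, miR-125a-5p and miR-125b-5p. They were chosen by their miRBase identifiers, with earlier results of these data known though by no threshold on a value, and are 6 of the 3200 rows of the deposited table and 6 of the 1369 rows that held a value in both arrays. One array was made from striatum of a male R6/2 mouse sample and 1 from striatum of a male wild-type mouse sample, both aged 10 weeks. The R6/2 line is transgenic for exon-one sequence of human huntingtin, with an expanded CAG repeat and driven by the human promoter, and serves as a model of Huntington's disease. Wild-type mice lack the transgene. Neither the number of animals behind each RNA, nor pooling, littermate status or strain background, is stated in the labels. Each array was a 3D-Gene mouse miRNA chip that read 1 sample in 1 colour (Hy5).

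The table holds no miRNA names. Each of its identifiers is the preceding one plus 1, in 3199 of 3199 steps, which a list of mouse miRNAs would not give, so most identifiers cannot be trusted to name the miRNA measured in their row. The names used here are those paired with 6 identifiers in the first 45 rows (MIMAT0000121 to MIMAT0000165), where an unbroken run was taken to be correct when the rows were selected. The pairing could not be tested from the table or from the RefSeq sequences, which carry no such identifiers, and every value below is that of the named miRNA only if it holds. No other row is given a miRNA name, so neither the striatal origin of the RNA nor other cell types could be checked against marker miRNAs.

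The let-7 miRNAs are among the most conserved miRNAs in animals and are known for high levels in differentiated cells, where they repress targets such as Lin28 and Hmga2. The miR-125 family is related to the nematode lin-4, the founding miRNA, and miR-125b is abundant in neural tissue. The miR-99 family, which includes miR-100, is known to target Mtor. In mammals, genes of the 3 families lie side by side in conserved clusters, and a mature miRNA finds its targets mainly through its seed, bases 2 to 8.

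The mature sequences show which members can be expected to share targets and which differ by few bases, and so bear on how far each row reports 1 miRNA alone. All 6 were found in RefSeq (GRCm38.p6), written here 5′ to 3′ with the seed in capitals.
let-7g-5p: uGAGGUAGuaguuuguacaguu
let-7i-5p: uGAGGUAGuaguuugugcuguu
miR-99a-5p: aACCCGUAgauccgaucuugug
miR-99b-5p: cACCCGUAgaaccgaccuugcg
miR-125a-5p: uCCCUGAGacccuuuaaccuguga
miR-125b-5p: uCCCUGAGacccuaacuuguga

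Each pair had a single seed, and the 3 seeds differed from each other. With base positions counted from 1 at the 5′ end, let-7i-5p differed from let-7g-5p at A17G and A19U, both outside the seed. The substitutions that turn miR-99a-5p into miR-99b-5p were A1C, U11A, U16C and U21C, again outside the seed. miR-125a-5p has 24 bases and miR-125b-5p has 22, and 3 single-base edits (substitutions, insertions or deletions) separate them. Between families the members were 8 to 16 edits apart. GC content was 36.4% in let-7g-5p and 40.9% in let-7i-5p, against 50.0% in miR-99a-5p, miR-125a-5p and miR-125b-5p and 63.6% in miR-99b-5p.

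For let-7g-5p and both miR-99 members, a mouse miRNA outside the 6 comes at least as close as the other family member does. Among 1679 mature mouse miRNA names in RefSeq, 10 others share the seed of let-7g-5p, 2 others that of miR-99a-5p and 4 others that of miR-125a-5p, each count including the other family member measured here. The 3 nearest relatives that are not members are shown for comparison with the sequences above.
miR-100-5p: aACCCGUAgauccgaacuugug
let-7a-5p: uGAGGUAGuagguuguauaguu
let-7f-5p: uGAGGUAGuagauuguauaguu
miR-100-5p differs from miR-99a-5p by the single substitution U16A. From let-7g-5p, let-7a-5p differs at U12G and C18U, and let-7f-5p at U12A and C18U. No source used here gives the probe sequences, and whether the let-7g-5p and miR-99a-5p rows also pick up these relatives was not tested.

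The genes lie on 4 chromosomes (RefSeq, GRCm38.p6). The mature let-7g-5p is encoded at chr9:106178846-106178867 on the plus strand, within the span of the protein-coding gene Wdr82. The let-7i-5p sequence is at chr10:122985698-122985719 on the minus strand, with no other annotated gene spanning it. miR-99a-5p is at chr16:77598940-77598961 on the plus strand, and its gene shares a cluster of 47.4 kb with Mirlet7c-1 and Mir125b-2. miR-99b-5p at chr17:17830194-17830215 and miR-125a-5p at chr17:17830817-17830840, both on the plus strand and within the span of Spaca6, belong to a cluster of 0.692 kb with Mirlet7e between them. miR-125b-5p has 2 genes with an identical mature sequence, Mir125b-1 at chr9:41581940-41581961 and Mir125b-2 at chr16:77646279-77646300, both on the plus strand, and the first lies 50.5 kb from Mir100. Its signal therefore cannot be divided between the 2 genes.

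All 6 miRNAs gave strong signals in both genotypes. They lay in the brightest 343 of the 1369 shared rows, the upper 25% by mean log2 intensity, and together held 3.74% of all signal on the R6/2 array and 3.56% on the wild-type array. Deposited intensity was higher in the R6/2 array for 6 of 6, by 1.06-fold to 1.31-fold, and none reached 1.5-fold in either direction. Because most rows filled in both arrays were higher in R6/2, the same 6 lay on both sides of the overall shift between the arrays once it was taken off. With 1 array per genotype there is no replicate error and no test, and a difference in RNA per cell cannot be told apart from one in the number of cells.

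let-7g-5p (row MIMAT0000121), the brighter of the let-7 members, read 6133.1 in R6/2 and 5772.8 in wild-type. Its rank by signal was 22 of 1650 filled rows in R6/2 and 20 of 1376 in wild-type. This was the smallest relative difference among the 6 as deposited, 1.06-fold, at a log2 ratio of 0.087.

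let-7i-5p (MIMAT0000122) had 3597.5 in R6/2 and 3133.8 in wild-type, ranking 38 and 36. The R6/2 value was 1.15-fold higher, a log2 ratio of 0.20. Both let-7 rows thus held a place near the top of either array, within the upper 2.30% of filled rows in R6/2 and the upper 2.62% in wild-type.

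miR-99a-5p (MIMAT0000131) had 2845.8 in R6/2 and 2174.7 in wild-type, and ranked 48 and 50. Its ratio was the highest of the 6, 1.31-fold or 0.39 on the log2 scale.

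miR-99b-5p (MIMAT0000132) was the dimmest member, with 763.4 in R6/2 and 633.2 in wild-type, ranks 95 and 99. It was 1.21-fold higher in R6/2, a log2 ratio of 0.27. Even this row lay in the upper 5.76% of filled rows in R6/2 and the upper 7.19% in wild-type.

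miR-125a-5p (MIMAT0000135) had 3676.5 in R6/2 and 3022.7 in wild-type, ranks 36 and 39. The difference was 1.22-fold, a log2 ratio of 0.28, close to that of miR-99b-5p from the same cluster.

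miR-125b-5p (MIMAT0000136) was the brightest member, with 13143.5 in R6/2 and 10315.2 in wild-type. It ranked 11 on both arrays and alone held 1.63% of the summed intensity in R6/2 and 1.46% in wild-type. Its ratio was 1.27-fold, 0.35 on the log2 scale.

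**Figure D1:**
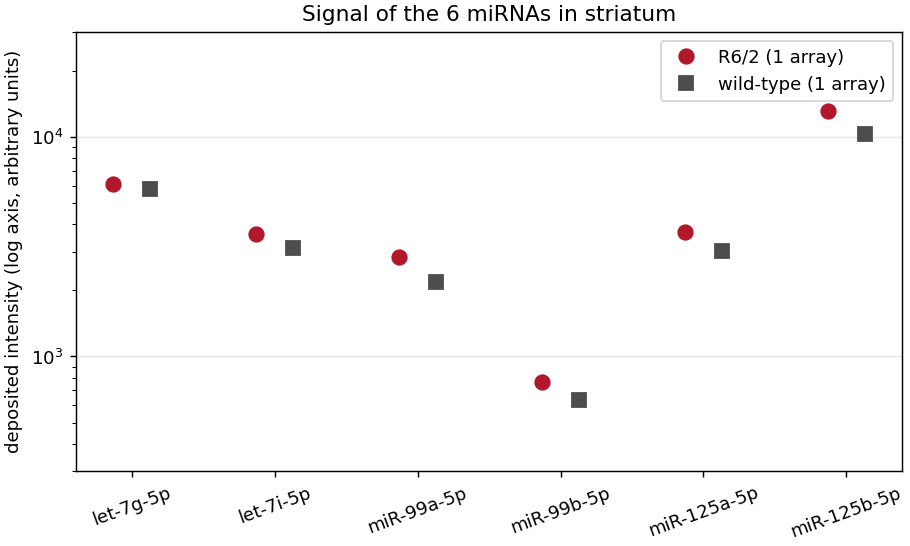
Deposited intensity of the 6 miRNAs (vertical log axis, arbitrary units) in the R6/2 array (circles, left of each pair) and the wild-type array (squares, right), 1 array each and therefore without error bars. Each circle stands above its square. In ratio, the gap is smallest for let-7g-5p (6133.1 and 5772.8) and largest for miR-99a-5p (2845.8 and 2174.7).

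In order of signal, both arrays had miR-125b-5p first, let-7g-5p next, and miR-99a-5p and miR-99b-5p last. miR-125a-5p and let-7i-5p changed places in between, at 3676.5 and 3597.5 in R6/2 and at 3022.7 and 3133.8 in wild-type. The brightest and dimmest members were 17.2-fold apart in R6/2 and 16.3-fold apart in wild-type. Different probes bind with different strength, so this is an order of signals and not of molecule numbers, and without replicates it cannot be said which neighbours differ beyond error.

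The ratios were read against the whole table. Over the 1369 shared rows the log2 ratio had a median of 0.30, and 1154 of them (84.3%) were above 0, so a positive sign as deposited does not set the members apart. The median of the 6 members was 0.28, against 0.21 in the brightest 343 rows and 0.14 in the 38 other rows of the run of 45 identifiers with values in both arrays. Relative to the median ratio of all shared rows, miR-99a-5p stood at 0.084 and miR-125b-5p at 0.046, while miR-125a-5p stood at -0.021, miR-99b-5p at -0.034, let-7i-5p at -0.10 and let-7g-5p at -0.22. On this scale 2 of 6 were above 0 and 4 below, as were 103 and 240 of the brightest 343.

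At a limit of 1.5-fold, 0 of 6 members were higher and 0 of 6 lower in R6/2 as deposited, where 21.5% of all shared rows passed it upward and 1.53% downward. With the median ratio taken off, the counts were again 0 and 0 of 6, against 9.42% of all shared rows upward and 5.41% downward. The brightest 343 rows are a nearer background for the members than all shared rows, though most of them are dimmer than every member. There 7.29% passed the limit upward and 2.92% downward as deposited, and 2.92% and 8.45% with the median ratio taken off. With these shares, a count of 0 of 6 does not set the members apart from the background.

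**Figure D2:**
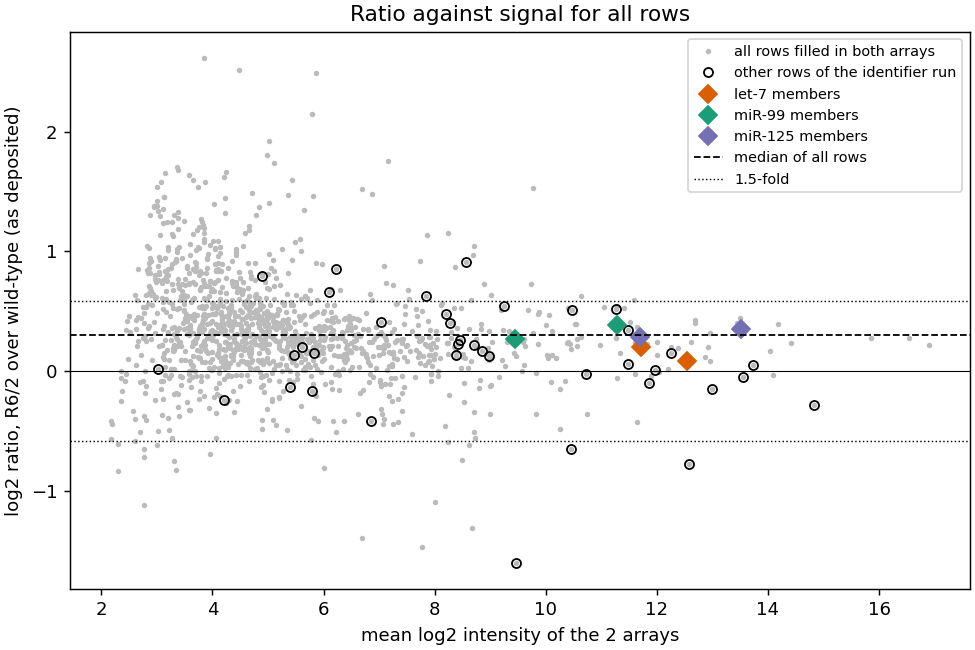
Deposited log2 ratio, R6/2 over wild-type (vertical), against the mean log2 intensity of the 2 arrays (horizontal) for the 1369 shared rows (grey points), the other rows of the identifier run (open circles) and the 6 members (diamonds, coloured by family). The members sit at the bright end between 0.087 and 0.39, inside the dotted 1.5-fold lines and around the dashed overall median of 0.30.

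The spread of ratios among rows of like signal gives a scale for these differences, though it mixes array noise with true differences and is no replicate error. The robust SD (the scaled median absolute deviation) of the log2 ratio was 0.22 in the brightest 343 rows. Measured from the median of these rows, the members lay between -0.12 for let-7g-5p and 0.18 for miR-99a-5p, so each was within 1 robust SD. Of the 343 rows, 241 had a higher ratio than let-7g-5p and 178 a higher one than let-7i-5p. The numbers above miR-99b-5p and miR-125a-5p were 123 and 112, and 82 rows lay above miR-125b-5p and 69 above miR-99a-5p.

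Differences between members do not depend on a constant scaling of either array, since it cancels. Within families, the log2 ratio of let-7g-5p minus that of let-7i-5p was -0.11, that of miR-99a-5p minus that of miR-99b-5p was 0.12, and that of miR-125a-5p minus that of miR-125b-5p was -0.067. For members that can come from the same gene cluster, miR-99b-5p minus miR-125a-5p gave -0.013 and miR-99a-5p minus miR-125b-5p gave 0.038, the other with the reservation that miR-125b-5p has another gene on chromosome 9. All 5 were below 0.22, the robust SD of single rows. A difference between rows in general spreads more widely than a single row, and the 5 pairs reuse the same members. How many other pairs of bright rows lie as close was not counted, so this does not set the pairs apart. Under quantile normalization the differences were -0.12, 0.0015 and 0.042 within families and 0.019 and 0.063 for the cluster pairs in the order given. The sign thus turned for miR-125a-5p minus miR-125b-5p and for miR-99b-5p minus miR-125a-5p. Family and cluster pairs were then interleaved by size of difference, where as deposited both cluster pairs were closer than every family pair.

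Both let-7 members had lower ratios than all 4 members of the miR-99 and miR-125 families, a contrast noticed after the values were seen. The let-7 mean was 0.14 and the mean of the other 4 was 0.32, a difference of -0.18 on the log2 scale. Centring and scaling by the sum take 1 constant off every ratio and cannot change it. Under the 3 alternatives that could, the difference was -0.14 with quantile normalization, -0.18 with the intensity trend removed and -0.18 with the pseudocount. The closest members across the contrast were let-7i-5p at 0.20 and miR-99b-5p at 0.27 as deposited. With quantile normalization they were let-7i-5p at -0.038 and miR-125b-5p at 0. The contrast was chosen on these values and was not tested. GC content was also lower in the let-7 members, as given with the sequences, and its part in the difference was not tested.

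**Figure D3:**
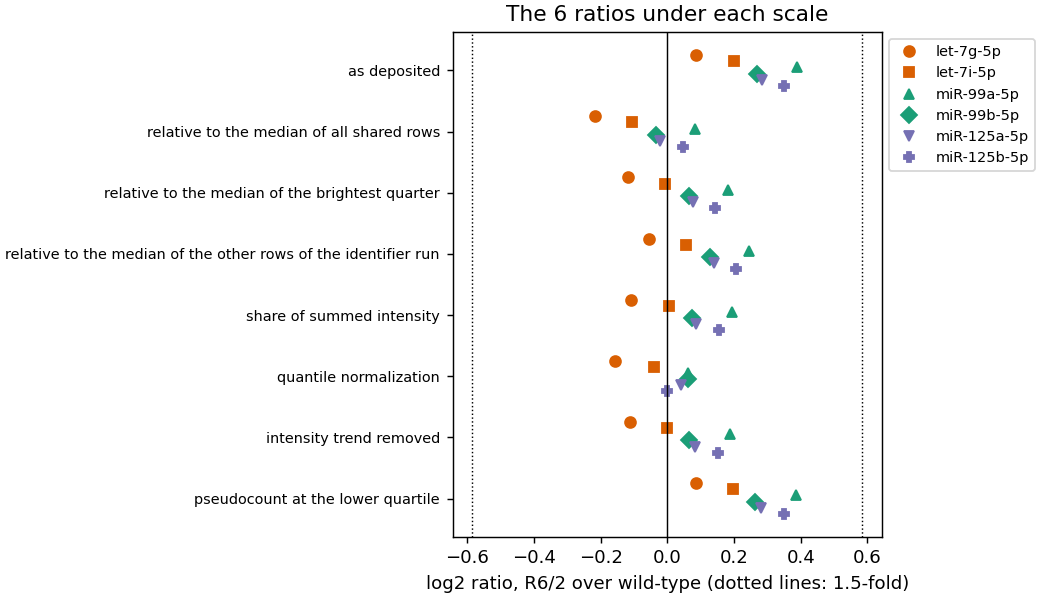
Log2 ratio, R6/2 over wild-type (horizontal), of each member as deposited and under 7 alternative scales or normalizations (rows), with symbols for the members, colours for the families and dotted lines at 1.5-fold. The sign of 4 of the 6 turns with the scale, all lie within 1.5-fold on every line. The 4 lines below the first that take off a constant move all symbols alike.

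Among the other rows of the identifier run, the row most like each member was taken as the nearest in the pair of log2 intensities. The closest match was MIMAT0000139 to miR-99a-5p, at a distance of 0.092 on the log2 scale, with 2942.9 in R6/2 and 2060.7 in wild-type. For the other 5 members the nearest row was 0.29 to 0.40 away. The distance includes the ratio, so a very close row has a like ratio by construction. As deposited, the nearest rows to let-7i-5p and miR-125b-5p had log2 ratios of -0.10 and -0.050, opposite in sign to the members. Those nearest to the rest were above 0. A range grows with the number of rows, and the run also holds rows dimmer than any member. With that limit, the run as a whole reached further in both directions than the members. It reached a log2 ratio of 0.91 in MIMAT0000141, with 520.6 in R6/2 and 277.4 in wild-type, and of -1.61 in MIMAT0000144, with 406.7 in R6/2 and 1238.9 in wild-type. Among the 44 rows of the run with both values, the members ranked 12 to 28 by ratio, miR-99a-5p highest and let-7g-5p lowest.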

How the data were processed

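Total RNA from striatum was extracted with TRIzol and labelled with Hy5, per the labels' protocols. The authors' deposited values are normalized intensity on a linear scale, to 1 decimal, leaving some cells blank; how they corrected background, scaled the arrays or chose the blanks is not stated in the labels or the table. Each array has a median intensity of 25 over its own filled rows (1650 in R6/2, 1376 in wild-type), so the authors' values appear scaled to it. Ratios (R6/2 over wild-type, log2) were computed without a pseudocount, as deposited and minus the median of the 1369 shared rows. No test was possible with 1 array per group, and the number of arrays limits the precision. The 7 alternatives were centring on 3 sets of rows, shares of the summed intensity, quantile normalization, lowess trend removal (span 0.4) and a pseudocount equal to the array's lower quartile. The scales and normalizations, apart from centring on the identifier run, were tried on simulated data. The planted changes there were larger than those of the members, so differences of the size reported were not covered. The miRNAs named are the 6 members; other rows printed by identifier are the closest of the nearest rows and the extremes of the run. Members and lists were chosen with earlier results of these data known. Sequences are RefSeq's. Python 3.11.15, numpy 2.4.6, pandas 2.3.3, statsmodels 0.14.6 and matplotlib 3.10.9 were used.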

Additional observations from a re-analysis of the deposited data

How the results depend on the processing

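No paired analysis was possible because a genotype has 1 array, and for the same reason no array could be left out. A value was taken as moved when it changed by at least the robust SD of 0.22. Relative to the median of all shared rows, the log2 ratios were -0.22 for let-7g-5p, -0.10 for let-7i-5p, 0.084 for miR-99a-5p, -0.034 for miR-99b-5p, -0.021 for miR-125a-5p and 0.046 for miR-125b-5p, and the members' median was -0.027 in place of 0.28. These moves are the constant of 0.30 taken off every ratio. Under quantile normalization the log2 ratios that moved were -0.16 for let-7g-5p, -0.038 for let-7i-5p, 0.063 for miR-99a-5p, 0.042 for miR-125a-5p and 0 for miR-125b-5p. miR-99b-5p, at 0.061, did not count as moved, and the members' median was 0.021. The 0 of miR-125b-5p follows from its equal rank on both arrays. Of the 42 alternative values of single members, 29 were above 0 and 12 below. The sign turned with the scale for let-7g-5p, let-7i-5p, miR-99b-5p and miR-125a-5p. Only miR-99a-5p was above 0 on every scale, as miR-125b-5p fell to 0 under quantile normalization. How many other rows were above 0 on every scale was not counted. Relative to the median of all shared rows, 103 of the brightest 343 rows were above 0, so this does not set miR-99a-5p apart. The count of members past 1.5-fold was 0 in each direction under every alternative and 0 at 2-fold. Of the 35 alternative values of differences between members, those under centring or scaling by the sum are fixed by construction; under the other 3 alternatives none moved by 0.22, but quantile normalization turned the sign of miR-125a-5p minus miR-125b-5p to 0.042 and of miR-99b-5p minus miR-125a-5p to 0.019. The let-7 contrast lay between -0.18 and -0.14, as added after seeing the data. The share of rows at least 1.5-fold higher as deposited was 21.5% over all shared rows and 7.29% in the brightest 25%, and the share lower was 1.53% and 2.92%.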
